A study of Mus musculus with 3 samples.

Results

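The 44 genes described here encode the constitutive proteasome, its regulators and its assembly factors in mouse keratinocytes. They were chosen by symbol among protein-coding genes: Psma1 to Psma7, Psmb1 to Psmb7, Psmc1 to Psmc6, the annotated members of the Psmd series up to Psmd14, Psme1 to Psme4, Psmf1, Psmg1 to Psmg4 and Pomp. The inducible subunits Psmb8, Psmb9 and Psmb10 were left out of the set. The rule uses names and no measured value, but it was set with earlier results of these data known. All 44 were found among the 41214 gene identifiers counted in each library, and all 44 are among the 11865 genes that reached at least 1 CPM (counts over the scaled library total) in at least 1 library.

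The study measured RNA by stranded mRNA sequencing in 3 keratinocyte libraries, 1 for each genotype. The genotypes are ARPC4 ko, in which a subunit of the actin-nucleating Arp2/3 complex was targeted, Nrf2-EGFP, whose cells express the transcription factor Nrf2 joined to a green fluorescent protein, and wt. All 3 cultures came from C57BL/6 mice, had been immortalised with SV40 and were growing exponentially when RNA was taken, without any treatment named in the labels. The series title places the comparison in work on loss of the Arp2/3 complex, a psoriasis-like skin disease and Nrf2 activity. The title of the ARPC4 ko library holds the word Cre and that of the Nrf2-EGFP library the word High. No source used here says how Cre was delivered, what drives the Nrf2-EGFP construct, whether a culture is 1 clone or what High means. SV40 immortalisation is shared by the wt cells, so none of the 3 represents primary epidermis.

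The proteasome is the main protease of the cytosol and nucleus for proteins tagged with ubiquitin. Its 20S core is a barrel of stacked rings, in which the outer alpha rings gate the entry and the inner beta rings carry the proteolytic sites. The 19S regulatory particle caps the barrel: a base with a ring of ATPases unfolds the substrate and a lid removes the ubiquitin chain. Other caps (PA28 and PA200) can replace the 19S particle, dedicated chaperones assemble the pieces, and in immune or interferon-treated cells inducible beta subunits replace the constitutive catalytic ones. In mammals, transcription of the constitutive genes is raised by the factor NRF1 (Nfe2l1) when proteasome activity falls short, and NRF2 (Nfe2l2), the master regulator of antioxidant genes, has been linked to some of the same genes.

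The libraries held 23033863 (ARPC4 ko), 25723959 (Nrf2-EGFP) and 22924294 (wt) gene counts. Each genotype has 1 library, so differences could not be checked against replicates, no p-value was computed, and the intervals in parentheses cover counting error alone. A gene was scored higher where its ratio lay 25% or more above 1, and lower where its ratio was 0.8 or less, if the 95% interval of the ratio also left out 1. This is the size threshold meant below. Arpc4 itself had 61.0 CPM in ARPC4 ko, 98.4 CPM in Nrf2-EGFP and 94.2 CPM in wt. Nfe2l2 had 179.5 CPM in ARPC4 ko, 166 CPM in Nrf2-EGFP and 225 CPM in wt, so its count was lower than in wt in both, with a ratio of 0.741 (0.711 to 0.772) in the library labelled Nrf2-EGFP and 0.799 (0.767 to 0.832) in ARPC4 ko. The names ARPC4 ko and Nrf2-EGFP stand below for the libraries so labelled. Of 12 keratinocyte markers, 11 reached 1 CPM in every library, and Krt15 had 0, 0 and 2 counts in ARPC4 ko, Nrf2-EGFP and wt. Their summed level was 16205 CPM in ARPC4 ko, 21306 CPM in Nrf2-EGFP and 26734 CPM in wt, and the part of this difference in the results below was not tested. Most of the difference lay in Krt5 (4260 CPM in ARPC4 ko, 8997 CPM in wt) and Krt14 (3249 CPM in ARPC4 ko, 7378 CPM in wt). The markers did not all move this way, and Trp63, Cdh3 and Col17a1 lay above wt in ARPC4 ko. The 7 immune markers summed to 6.29 CPM in ARPC4 ko, 4.75 CPM in Nrf2-EGFP and 5.56 CPM in wt, nearly all of it Cd68, with Lyz2, Cd3e and Adgre1 at 0 counts in all 3. The melanocyte, fibroblast and endothelial lists each stayed between 1.07 and 5.35 CPM in sum in every library.

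Proteasome transcripts were abundant in all 3 cultures and made up a slightly smaller part of the RNA in ARPC4 ko and Nrf2-EGFP than in wt. The 44 genes together held 156286 counts in ARPC4 ko, 171124 in Nrf2-EGFP and 167006 in wt. That is 0.679% of all gene counts in ARPC4 ko, 0.665% in Nrf2-EGFP and 0.729% in wt, with exact (Clopper-Pearson) binomial 95% intervals of 0.675% to 0.682%, 0.662% to 0.668% and 0.725% to 0.732%. After scaling, the summed level was 6429 CPM in ARPC4 ko, 6887 CPM in Nrf2-EGFP and 7427 CPM in wt. Single genes ranged between 9.05 and 568 CPM in ARPC4 ko, between 9.22 and 628 CPM in Nrf2-EGFP and between 7.47 and 612 CPM in wt. Psmg4 had the fewest counts and Psmd2 the most in each library, but CPM is not corrected for gene length and gives no order of abundance between genes. For 29 of the 44 genes the highest of the 3 levels was in wt, for 11 in Nrf2-EGFP and for 4 in ARPC4 ko. The lowest of the 3 was in ARPC4 ko for 27 genes, in Nrf2-EGFP for 9 and in wt for 8. The order of ARPC4 ko and Nrf2-EGFP depends on the scaling between libraries. In ARPC4 ko against Nrf2-EGFP, 32 of the 44 genes had a log2 fold below 0 with the main scaling (TMM factors). With total gene counts alone it was 17 of 44. RNA came from whole cultures, so fewer cells with a transcript and less transcript per cell cannot be told apart.

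**Figure D1:**
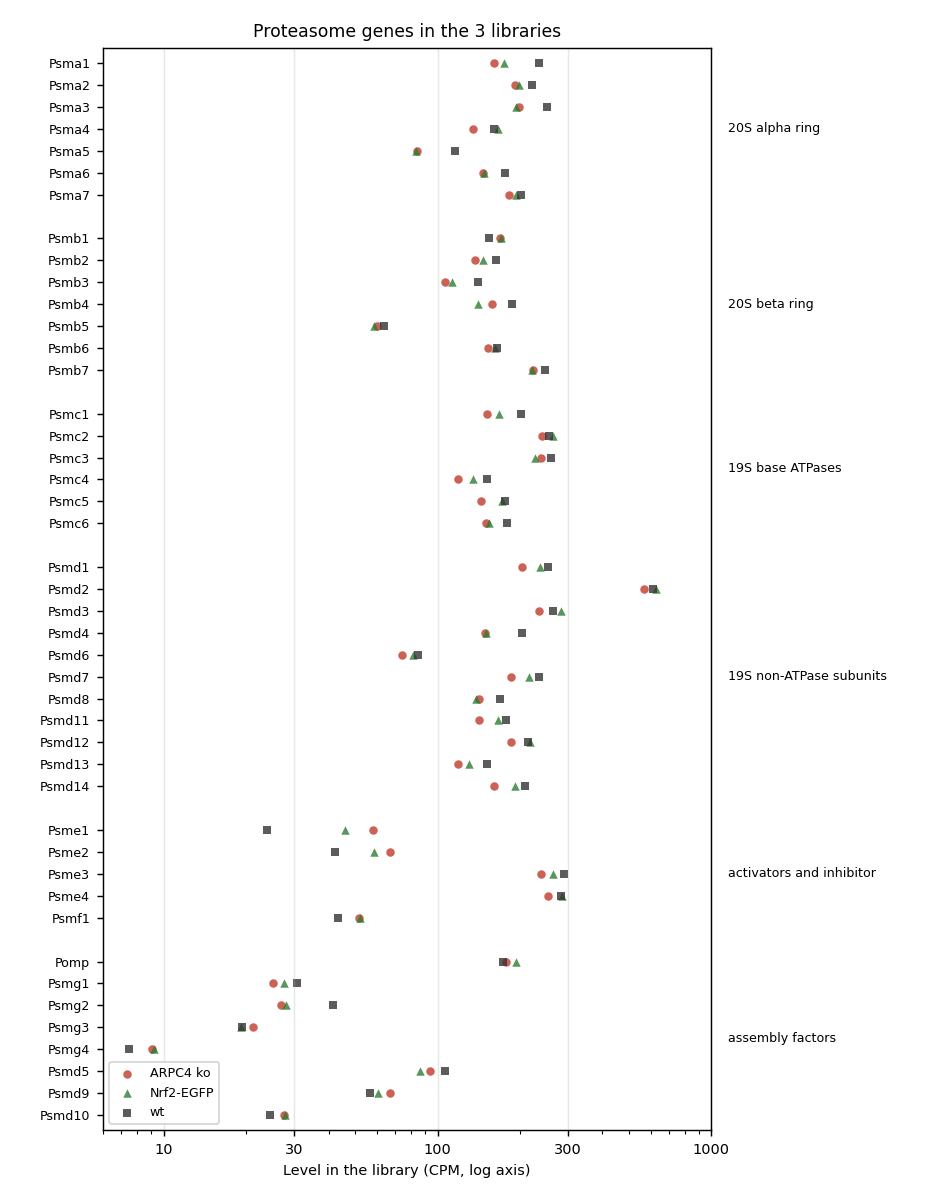
Level of each of the 44 proteasome genes in CPM (log axis) in the ARPC4 ko, Nrf2-EGFP and wt libraries, 1 point per library, grouped by role. Most core and 19S genes have the wt square at the right, whereas Psme1 and Psme2 have it at the left, at 23.8 and 42.2 CPM.

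Promoter sequences are shown for 4 members at the ends and the centre of these differences: Psme1, the gene with the largest ratio to wt, Psmd4 and Psma1, which were among the lowest in both other libraries, and Psmb5, a catalytic subunit close to its wt level. Each runs over 250 bases before and 50 bases after the annotated start, read 5′ to 3′ on the gene's strand from the RefSeq table for GRCm38.p6. They lie at chr14:55578244-55578543 on the plus strand (Psme1), chr3:95042565-95042864 on the minus strand (Psmd4), chr7:114276067-114276366 on the minus strand (Psma1) and chr14:54617946-54618245 on the minus strand (Psmb5). Capitals mark matches, on either strand, to 3 sets of letters: TGACNNNGC, the core of the antioxidant response element bound by NRF1 and NRF2, CCAAT, the box bound by NF-Y, and TTTCNNTTTC, the core of interferon-responsive elements.
Psme1: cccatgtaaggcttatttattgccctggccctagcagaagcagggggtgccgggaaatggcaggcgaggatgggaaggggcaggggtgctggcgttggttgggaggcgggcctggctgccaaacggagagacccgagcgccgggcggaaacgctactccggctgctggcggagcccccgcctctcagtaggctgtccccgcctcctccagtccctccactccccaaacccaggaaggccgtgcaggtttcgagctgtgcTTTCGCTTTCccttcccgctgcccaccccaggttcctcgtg
Psmd4: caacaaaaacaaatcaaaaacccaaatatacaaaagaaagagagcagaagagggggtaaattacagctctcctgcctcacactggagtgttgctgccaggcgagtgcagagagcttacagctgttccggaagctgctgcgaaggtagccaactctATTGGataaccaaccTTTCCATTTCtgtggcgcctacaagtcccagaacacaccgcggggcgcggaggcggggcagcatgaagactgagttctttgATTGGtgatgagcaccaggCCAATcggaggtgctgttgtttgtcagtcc
Psma1: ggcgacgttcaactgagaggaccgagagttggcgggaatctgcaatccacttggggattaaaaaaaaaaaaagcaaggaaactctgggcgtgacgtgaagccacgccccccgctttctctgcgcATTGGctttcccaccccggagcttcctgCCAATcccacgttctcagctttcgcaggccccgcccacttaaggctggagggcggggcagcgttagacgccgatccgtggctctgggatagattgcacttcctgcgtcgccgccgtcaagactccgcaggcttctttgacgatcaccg
Psmb5: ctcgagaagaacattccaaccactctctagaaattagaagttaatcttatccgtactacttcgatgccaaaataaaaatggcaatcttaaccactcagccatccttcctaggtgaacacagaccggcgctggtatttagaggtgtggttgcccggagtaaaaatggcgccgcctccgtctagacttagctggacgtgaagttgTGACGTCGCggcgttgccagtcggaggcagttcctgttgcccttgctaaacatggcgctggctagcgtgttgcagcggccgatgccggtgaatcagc
The Psme1 window holds 1 match, TTTCGCTTTC, starting at base 9 after the start site. The Psmd4 window holds 3 CCAAT matches and 1 match to TTTCNNTTTC, the Psma1 window 2 CCAAT matches, and the Psmb5 window TGACGTCGC, which begins 47 bases before the start.

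These letters were looked for in the promoters of 37 of the 44 members, those with an entry in the table, and in those of all 27025 genes there. TGACNNNGC was in 6 of 37 members (16.2%) and in 13.99% of all genes. The 6 were Psmb5, Psmb6, Psmc6, Psmd12, Psme4 and Psmd9. The stricter form TGACTCAGC, which lies within TGACNNNGC, was in 0 of 37 members and in 0.503% of all genes. CCAAT was in 12 of 37 members (32.4%) and in 41.1% of all genes. TTTCNNTTTC, a motif added after the values were seen, was in 5 of 37 members (13.5%), Psmb3, Psmd4, Psme1, Psmg4 and Psmd9, and in 3.99% of all genes. The log2 folds of these 5 against wt in ARPC4 ko spread between -0.46 (Psmd4) and 1.27 (Psme1), so the match did not go with 1 direction. The 12 members with CCAAT had a median log2 fold of -0.31 in ARPC4 ko and -0.21 in Nrf2-EGFP, and the 25 without had -0.20 in ARPC4 ko and -0.04 in Nrf2-EGFP, all against wt. A match is a run of letters and not a measured binding site, and its part in any difference was not tested.

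In ARPC4 ko against wt, constitutive core and 19S genes lay somewhat below wt and the PA28 genes Psme1 and Psme2 above it. Of the 44 genes, 12 were lower, which is 27.3% of them, where 17.3% of all genes kept were lower. Higher were 2 of 44 (4.55%), where 19.3% of all genes were higher. The 12 were Psma1, Psma3, Psma5, Psmb3, Psmc1, Psmc4, Psmd4, Psmd7, Psmd11, Psmd13, Psmd14 and Psmg2. Psme1 alone was past 2-fold, as were 6.76% of all genes. The median log2 fold of the 44 was -0.22, against -0.01 for all genes, and 35 of 44 had a log2 fold below 0. Highly expressed genes as a class also lay lower in ARPC4 ko: among the 2930 genes with at least 100 CPM in any library, the median was -0.08 and 21.3% were lower. The counting interval of the ratio held 1 for 4 of the 44 genes.

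The scaling of the libraries moves these counts. With total gene counts alone in place of TMM factors, the median of all genes in ARPC4 ko against wt became 0.09, and the split of the 44 became 5 higher and 4 lower, against 2 higher and 12 lower with TMM. The 4 were Psmg2, Psma1, Psma5 and Psmd4. The median of the 44 then was -0.12. Relative to the median of all genes, the proteasome median was 0.21 lower on the log2 scale with TMM, and this distance differed little with total counts. A change of scaling shifts the log2 folds of all genes by nearly the same amount. The distance could therefore hardly differ, and its steadiness is no check of the result.

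In Nrf2-EGFP against wt the same side of the scale was occupied with smaller sizes, and both comparisons share the wt library. Lower were 6 of 44 genes (13.6%), where 15.3% of all genes were lower, so the share was close to that of all genes. They were Psma1, Psma3, Psma5, Psmb4, Psmd4 and Psmg2. Higher were Psme1 and Psme2, 4.55% of the set, where 17.1% of all genes were higher. None of the 44 was past 2-fold, where 5.61% of all genes were. The median log2 fold of the 44 was -0.12, against 0.00 for all genes and 0.02 for genes with at least 100 CPM, and 30 of 44 were below 0. The interval held 1 for 10 genes.

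In ARPC4 ko against Nrf2-EGFP the set differed little. Psme1 was the 1 gene higher (2.27% of 44, where 11.9% of all genes were higher), and 0 of 44 were lower, where 10.4% of all genes were. None was past 2-fold, where 2.98% of all genes were. The median log2 fold was -0.09, against -0.02 for all genes and -0.11 for genes with at least 100 CPM, and its sign turned with scaling by total gene counts (0.04) or by the genes with a mean of at least 100 CPM (0.019). The interval held 1 for 16 genes.

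**Figure D2:**
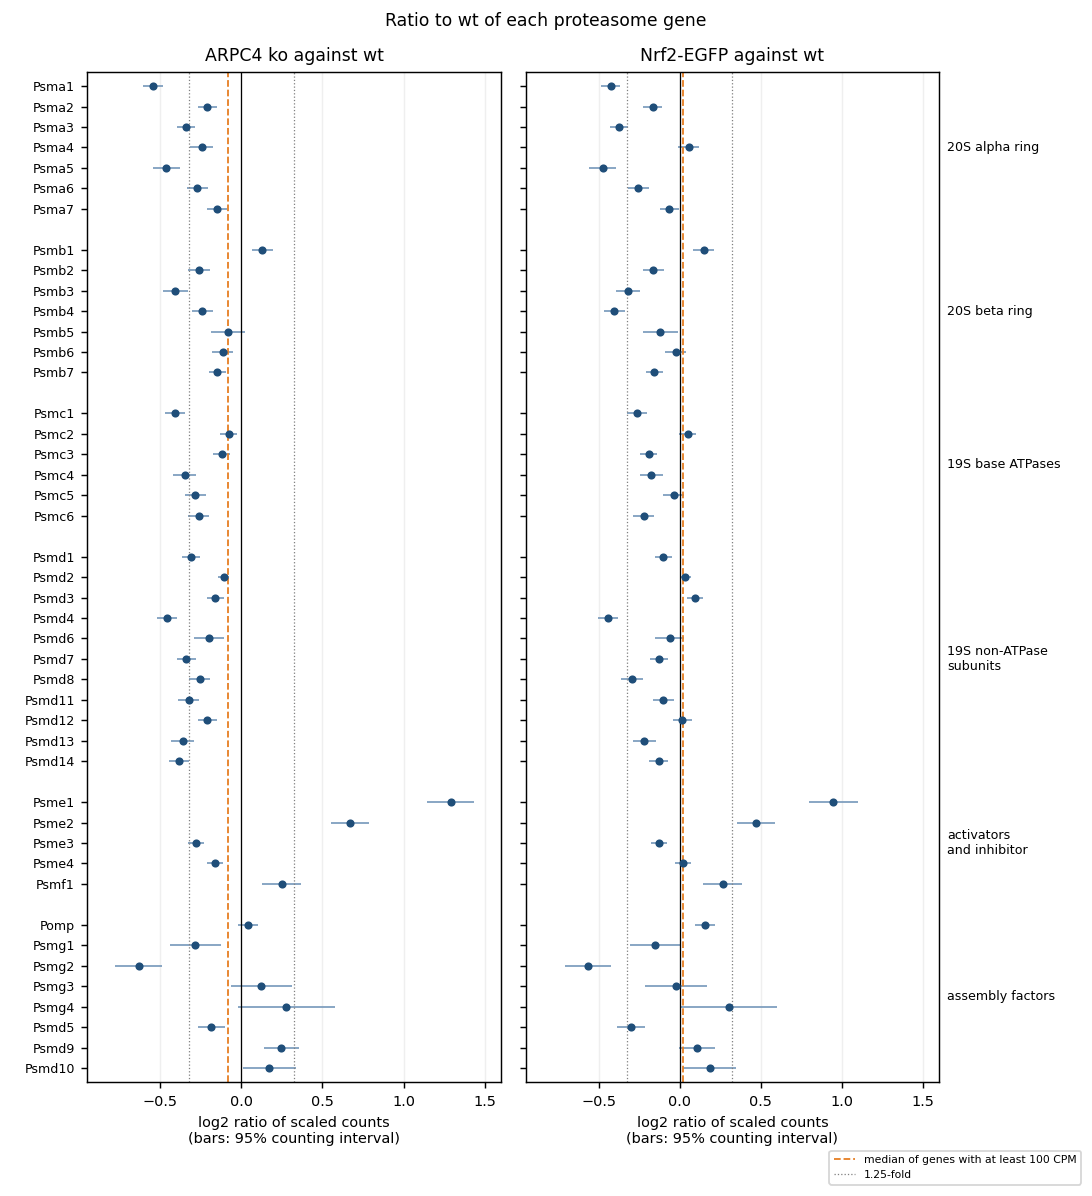
Log2 ratio of each proteasome gene in ARPC4 ko against wt (left) and in Nrf2-EGFP against wt (right), with 95% counting intervals as bars. Dotted lines mark the size threshold, the dashed line marks the median of genes with at least 100 CPM, and Psme1 and Psme2 stand alone at the right of both panels.

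The alpha ring of the 20S core had 3 of 7 genes lower (42.9%) in ARPC4 ko and the same count in Nrf2-EGFP. Of all genes, 17.3% were lower in ARPC4 ko and 15.3% in Nrf2-EGFP. The median log2 folds of the ring against wt were -0.27 in ARPC4 ko and -0.25 in Nrf2-EGFP. Psma1, an alpha-ring subunit, had 161 CPM in ARPC4 ko, 175 CPM in Nrf2-EGFP and 235 CPM in wt. It was 1.46-fold lower (1.40 to 1.52) in ARPC4 ko and 1.34-fold lower (1.29 to 1.40) in Nrf2-EGFP than in wt. Psma5 had 84.3 CPM in ARPC4 ko, 83.7 CPM in Nrf2-EGFP and 116 CPM in wt. Its levels in ARPC4 ko and Nrf2-EGFP were close (ratio 1.01, 0.948 to 1.07), and both lay below wt, by 1.38-fold in ARPC4 ko and 1.39-fold in Nrf2-EGFP. Psma3 had 198 CPM in ARPC4 ko, 194 CPM in Nrf2-EGFP and 251 CPM in wt, which is 1.27-fold lower (1.22 to 1.32) in ARPC4 ko than in wt. Psma4 was placed otherwise, with 135 CPM in ARPC4 ko, 167 CPM in Nrf2-EGFP and 160 CPM in wt. Its ratio of 0.81 (0.774 to 0.849) was the lowest of the 44 in ARPC4 ko against Nrf2-EGFP, without reaching the size threshold. Psma2, Psma6 and Psma7 had log2 folds between -0.27 and -0.15 in ARPC4 ko and between -0.25 and -0.06 in Nrf2-EGFP, and wt was the highest library for each.

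The beta ring, which carries the protease sites, had 1 of 7 genes lower in ARPC4 ko (Psmb3) and 1 of 7 lower in Nrf2-EGFP (Psmb4). Each is 14.3% of the ring, no more than the 17.3% and 15.3% of all genes in these comparisons. The median log2 folds were -0.15 in ARPC4 ko and -0.16 in Nrf2-EGFP. The 3 catalytic subunits stayed near their wt levels. Psmb5, the chymotrypsin-like subunit, had 60.1 CPM in ARPC4 ko, 58.6 CPM in Nrf2-EGFP and 63.7 CPM in wt. Its ratio to wt was 0.944 (0.877 to 1.02) in ARPC4 ko and 0.921 (0.856 to 0.991) in Nrf2-EGFP. Psmb6, the caspase-like subunit, had 153 CPM in ARPC4 ko, 163 CPM in Nrf2-EGFP and 165.5 CPM in wt. Psmb7, the trypsin-like subunit, had 223.5 CPM in ARPC4 ko, 222 CPM in Nrf2-EGFP and 248 CPM in wt. All 3 were inside the size threshold in both libraries. Among the structural beta subunits, Psmb3 had 106 CPM in ARPC4 ko, 113 CPM in Nrf2-EGFP and 141 CPM in wt. It was 1.33-fold lower (1.26 to 1.40) in ARPC4 ko, and its ratio of 0.803 (0.763 to 0.845) in Nrf2-EGFP just missed the threshold. Psmb4 had 158 CPM in ARPC4 ko, 141 CPM in Nrf2-EGFP and 187 CPM in wt, with the lowest level in Nrf2-EGFP, 1.32-fold (1.26 to 1.38) below wt. Psmb1 had 168 CPM in ARPC4 ko, 171 CPM in Nrf2-EGFP and 154 CPM in wt. It was the only one of the 31 core and 19S genes with a log2 fold above 0 in ARPC4 ko (0.13), and Psmb2 had -0.26.

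The 6 ATPases of the 19S base, which unfold substrates and feed them into the core, had 2 lower in ARPC4 ko and 0 lower in Nrf2-EGFP. That is 33.3% in ARPC4 ko, where 17.3% of all genes were lower, and 0% in Nrf2-EGFP, where 15.3% were. The median log2 folds of the ATPases against wt were -0.27 in ARPC4 ko and -0.18 in Nrf2-EGFP. Psmc1 had 152 CPM in ARPC4 ko, 167.5 CPM in Nrf2-EGFP and 201 CPM in wt. It was 1.33-fold lower (1.27 to 1.39) in ARPC4 ko, with Nrf2-EGFP between the other two libraries. Psmc4 had 119 CPM in ARPC4 ko, 134 CPM in Nrf2-EGFP and 152 CPM in wt, in the same order, and was 1.27-fold lower (1.21 to 1.34) in ARPC4 ko than in wt. Psmc5 had 144.5 CPM in ARPC4 ko, 171.5 CPM in Nrf2-EGFP and 176 CPM in wt, so that ARPC4 ko stood below both others without reaching the threshold. Psmc2, Psmc3 and Psmc6 had log2 folds against wt between -0.26 and -0.08 in ARPC4 ko and between -0.22 and 0.05 in Nrf2-EGFP. Psmc3 overlaps Slc39a13 on the opposite strand, and no source used here gives the strand setting of the counting.

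The 11 non-ATPase subunits of the 19S particle had the lowest group median in ARPC4 ko against wt, -0.31, with 5 of 11 lower and all 11 below 0. That is 45.5% lower, where 17.3% of all genes and 21.3% of genes with at least 100 CPM were. The count rests on TMM: with total gene counts alone, Psmd4 was the only lower gene of this group. In Nrf2-EGFP 1 of 11 was lower (9.09%, where 15.3% of all genes were), with a median of -0.10. Psmd4, a receptor for ubiquitin chains, had 149 CPM in ARPC4 ko, 150 CPM in Nrf2-EGFP and 204 CPM in wt. Its levels in ARPC4 ko and Nrf2-EGFP were close, and Psmd4 was 1.37-fold lower (1.31 to 1.43) in ARPC4 ko and 1.36-fold lower (1.30 to 1.42) in Nrf2-EGFP than in wt. Psmd14, the deubiquitinase of the lid, had 160 CPM in ARPC4 ko, 191.5 CPM in Nrf2-EGFP and 209.5 CPM in wt. Psmd7, the lid subunit that pairs with Psmd14, had 186 CPM in ARPC4 ko, 215 CPM in Nrf2-EGFP and 235 CPM in wt. Both were lower in ARPC4 ko than in wt, Psmd14 by 1.31-fold and Psmd7 by 1.27-fold (1.22 to 1.32), and in Nrf2-EGFP both were 1.09-fold below wt. Psmd11, which ties the lid to the core, had 142 CPM in ARPC4 ko, 166 CPM in Nrf2-EGFP and 178 CPM in wt. With a ratio of 0.798 (0.763 to 0.836) in ARPC4 ko against wt it just passed the threshold, and Psmd1, a scaffold of the base, with 0.806 (0.775 to 0.837), just missed it. Psmd13, a lid subunit, had 118 CPM in ARPC4 ko, 131 CPM in Nrf2-EGFP and 152 CPM in wt.

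The remaining non-ATPase genes were inside the size threshold in all 3 comparisons. Psmd3 had 236 CPM in ARPC4 ko, 282 CPM in Nrf2-EGFP and 264 CPM in wt. Psmd12 had 186 CPM in ARPC4 ko, 217 CPM in Nrf2-EGFP and 215 CPM in wt. For both genes ARPC4 ko was the low library, with ratios to Nrf2-EGFP of 0.836 (0.807 to 0.866) for Psmd3 and 0.855 (0.822 to 0.89) for Psmd12, short of the threshold. Psmd2, the other base scaffold, had 568 CPM in ARPC4 ko, 628 CPM in Nrf2-EGFP and 612 CPM in wt. Psmd6 and Psmd8 had log2 folds against wt of -0.20 and -0.26 in ARPC4 ko and of -0.06 and -0.29 in Nrf2-EGFP. The non-ATPase group had 10 of 11 members below 0 in ARPC4 ko against Nrf2-EGFP, at a median of -0.21, whereas the alpha and beta rings lay near 0 there, at -0.04 (alpha) and -0.02 (beta). In that comparison 52.9% of all genes and 73.8% of genes with at least 100 CPM were below 0, these abundant genes with a median of -0.11. Scaling by total gene counts put the non-ATPase median at -0.08, the alpha ring at 0.08 and the beta ring at 0.11, so the sign of the rings depends on the scaling.

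The activators moved the other way in part. Psme1 and Psme2 encode the alpha and beta chains of PA28, a cap of the 20S core that interferon gamma is known to induce. Psme1 had 58.3 CPM in ARPC4 ko, 45.9 CPM in Nrf2-EGFP and 23.8 CPM in wt, from 1418, 1141 and 536 counts. It rose 2.45-fold (2.21 to 2.71) in ARPC4 ko and 1.93-fold (1.74 to 2.14) in Nrf2-EGFP over wt, and was 1.27-fold higher (1.17 to 1.37) in ARPC4 ko than in Nrf2-EGFP. Psme2 had 67.0 CPM in ARPC4 ko, 58.5 CPM in Nrf2-EGFP and 42.2 CPM in wt. It rose 1.59-fold (1.47 to 1.72) in ARPC4 ko and 1.39-fold (1.28 to 1.51) in Nrf2-EGFP over wt, and its ratio of 1.15 (1.07 to 1.23) in ARPC4 ko against Nrf2-EGFP missed the threshold. Both genes were thus highest in ARPC4 ko and lowest in wt. They are neighbours on chromosome 14 (mm10), Psme1 at chr14:55578123-55581529 on the plus strand and Psme2 at chr14:55587441-55591113 on the minus strand, with 5911 bases between them. Of the 65-base windows in the longest coding transcript of Psme2, 54.5% also occur in the copy Psme2b, which had 4 counts over the 3 libraries. For Psme1, 7.16% of the windows also occur in other annotated genes. Emc9 overlaps Psme1 on the opposite strand and had 42 counts in ARPC4 ko, 25 in Nrf2-EGFP and 22 in wt.

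The other caps and the inhibitor stayed inside the size threshold. Psme3, the chain of a nuclear PA28 form, had 238 CPM in ARPC4 ko, 265 CPM in Nrf2-EGFP and 289 CPM in wt, with ratios to wt of 0.823 (0.795 to 0.853) in ARPC4 ko and 0.914 (0.883 to 0.946) in Nrf2-EGFP. Psme4, which encodes PA200, had 252 CPM in ARPC4 ko, 286 CPM in Nrf2-EGFP and 282 CPM in wt. Both nuclear caps thus had their lowest level in ARPC4 ko, where PA28 alpha and beta had their highest. Psmf1, which encodes the inhibitor PI31, had 51.6 CPM in ARPC4 ko, 52.2 CPM in Nrf2-EGFP and 43.5 CPM in wt. Its ratio to wt was 1.19 (1.09 to 1.29) in ARPC4 ko and 1.201 (1.105 to 1.31) in Nrf2-EGFP, short of the threshold but on the side of Psme1 and Psme2.

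Of the 8 assembly factors 1 was lower in each of ARPC4 ko and Nrf2-EGFP, and it was Psmg2 in both. That is 12.5% of the list, below the 17.3% of all genes in ARPC4 ko and the 15.3% in Nrf2-EGFP. Psmg2, which pairs with Psmg1 as the chaperone that starts the alpha ring, had 26.7 CPM in ARPC4 ko, 28.1 CPM in Nrf2-EGFP and 41.5 CPM in wt. It had the lowest log2 fold of all 44 genes in both libraries, at 1.55-fold lower (1.40 to 1.72) in ARPC4 ko and 1.48-fold lower (1.34 to 1.63) in Nrf2-EGFP. Psmg1, its partner, had 25.1 CPM in ARPC4 ko, 27.6 CPM in Nrf2-EGFP and 30.6 CPM in wt. Its ratios to wt, 0.822 (0.736 to 0.917) in ARPC4 ko and 0.901 (0.809 to 1.003) in Nrf2-EGFP, were on the same side as those of Psmg2 but missed the threshold. Pomp, the chaperone that matures the core, had 178 CPM in ARPC4 ko, 193 CPM in Nrf2-EGFP and 173 CPM in wt, with ratios to wt of 1.03 (0.984 to 1.07) in ARPC4 ko and 1.12 (1.07 to 1.16) in Nrf2-EGFP. Psmg3 and Psmg4, which form another chaperone pair, drew few counts. Psmg4 had 9.05 CPM in ARPC4 ko, 9.22 CPM in Nrf2-EGFP and 7.47 CPM in wt. Its ratios to wt, 1.21 (0.986 to 1.49) in ARPC4 ko and 1.23 (1.01 to 1.51) in Nrf2-EGFP, rest on 220 counts in ARPC4 ko, 229 in Nrf2-EGFP and 168 in wt. Psmg3 had 21.1 CPM in ARPC4 ko, 19.1 CPM in Nrf2-EGFP and 19.4 CPM in wt.

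The chaperones of the 19S base also differed among themselves. Psmd5 had 93.6 CPM in ARPC4 ko, 86.5 CPM in Nrf2-EGFP and 106.5 CPM in wt. Psmd9 had 67.0 CPM in ARPC4 ko, 60.9 CPM in Nrf2-EGFP and 56.5 CPM in wt. Psmd10, also known as gankyrin, had 27.5 CPM in ARPC4 ko, 27.7 CPM in Nrf2-EGFP and 24.4 CPM in wt. Psmd5 lay below wt and the other two above it, all inside the size threshold. The median log2 fold against wt of the 8 assembly factors was 0.08 in ARPC4 ko and 0.04 in Nrf2-EGFP, where the 31 core and 19S genes had -0.26 in ARPC4 ko and -0.16 in Nrf2-EGFP.

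**Figure D3:**
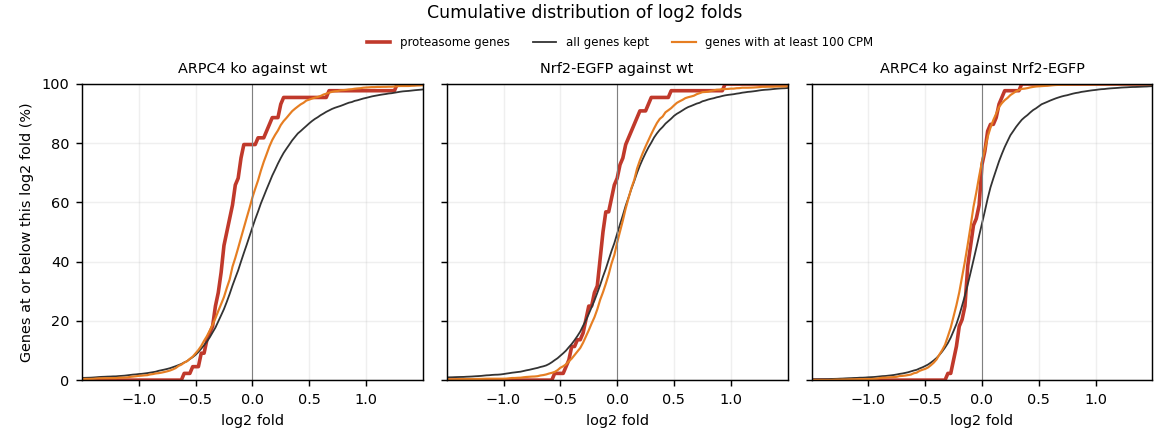
Cumulative share (%) of genes at or below each log2 fold for the 44 proteasome genes, all 11865 genes kept and the 2930 genes with at least 100 CPM, in the 3 comparisons. The proteasome curve lies left of both others around 0 in the 2 comparisons with wt, with 35 and 30 of 44 genes below 0, and close to the curve of abundant genes in ARPC4 ko against Nrf2-EGFP.

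The make-up of the proteasome transcripts shifted by a few percentage points at most. Alpha-ring genes held 17.1% of the proteasome counts in ARPC4 ko, 16.8% in Nrf2-EGFP and 18.4% in wt. Beta-ring genes held 15.6%, 14.7% and 15.1% in ARPC4 ko, Nrf2-EGFP and wt. The 19S non-ATPase genes held 33.7% in ARPC4 ko, 35.4% in Nrf2-EGFP and 34.7% in wt. Assembly factors held 6.97% in ARPC4 ko, 6.57% in Nrf2-EGFP and 6.19% in wt. Psme1 and Psme2 together held 1.95% (1.88% to 2.02%) in ARPC4 ko, 1.52% (1.46% to 1.57%) in Nrf2-EGFP and 0.889% (0.845% to 0.935%) in wt. These shares are taken within a library and do not depend on the scaling between libraries.

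Levels of different genes were compared per kilobase of annotated exon. Psmd2 was the highest in each library, with 141 CPM per kilobase in ARPC4 ko, 155 in Nrf2-EGFP and 152 in wt. Psma6, Psmb2 and Psmc5 took the next places in each library, in an order that changed between Nrf2-EGFP and the other two. In Nrf2-EGFP they had 119.8, 122 and 123 CPM per kilobase, with counting intervals that overlap. Psmd9, Psmf1 and Psmg3 were the last 3 in each library, between 6.61 and 9.25 CPM per kilobase. Psme1 was number 35 of 44 in ARPC4 ko, 36 in Nrf2-EGFP and 41 in wt. The order depends on the length used: with the longest coding transcript, 5, 4 and 6 of the 10 highest genes in ARPC4 ko, Nrf2-EGFP and wt were still among the 10 highest. On that length the beta ring had the highest group median, 139 CPM per kilobase in ARPC4 ko, 148 in Nrf2-EGFP and 184 in wt, and assembly factors the lowest, 22.6 in ARPC4 ko, 21.6 in Nrf2-EGFP and 23.1 in wt.

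Ratios within a library, per kilobase of the longest coding transcript, set the inducible chains beside the constitutive ones. Psme1 stood at 0.586 of Psme3 (0.553 to 0.622) in ARPC4 ko, 0.416 (0.39 to 0.443) in Nrf2-EGFP and 0.197 (0.18 to 0.215) in wt. Psme2 stood at 0.779 of Psme3 in ARPC4 ko, 0.613 in Nrf2-EGFP and 0.404 in wt. Psme1 over Psme2, the 2 chains of 1 ring, was 0.753 in ARPC4 ko, 0.679 in Nrf2-EGFP and 0.489 in wt, so the 2 transcripts were less unequal in ARPC4 ko and Nrf2-EGFP. The inducible subunits that replace Psmb5 and Psmb7 followed: Psmb8 over Psmb5 was 0.0759 in ARPC4 ko, 0.0678 in Nrf2-EGFP and 0.0123 in wt, and Psmb10 over Psmb7 was 0.078 in ARPC4 ko, 0.0641 in Nrf2-EGFP and 0.0354 in wt. Psmb9 over Psmb6 was 0.0089 in ARPC4 ko, 0.00351 in Nrf2-EGFP and 0.00301 in wt, on 56, 24 and 19 counts of Psmb9. On this length the constitutive catalytic subunit was more than 10-fold the more abundant transcript in every library. The size of these ratios depends on the length used. Per kilobase of all annotated exons, Psmb10 had 11.6 CPM and Psmb7 65.3 CPM in ARPC4 ko, which is a smaller gap. Reads may also be lost where sequence is shared with other annotated genes. That held for 54.45% of the 65-base windows of Psme2 and 46.7% of those of Psmb5.

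**Figure D4:**
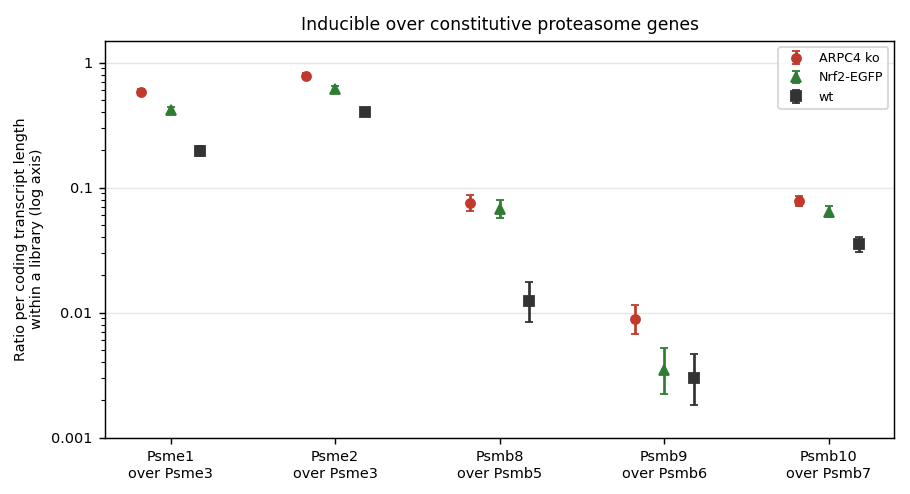
Ratio of an inducible to a constitutive proteasome gene, per length of the longest coding transcript and within 1 library (log axis), in ARPC4 ko, Nrf2-EGFP and wt, with 95% counting intervals as bars. The Psme1 over Psme3 ratio was 0.586, 0.416 and 0.197 in these libraries, and wt is the lowest point of each set.

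Genes that work with the proteasome can be read against the shares of all genes kept. These were 17.3% lower and 19.3% higher in ARPC4 ko than in wt, and 15.3% lower and 17.1% higher in Nrf2-EGFP. Among genes with at least 100 CPM, 21.3% were lower in ARPC4 ko than in wt. With total gene counts alone in place of TMM factors, 11.1% of all genes were lower and 26% higher in ARPC4 ko than in wt. The counts and medians of the lists below are with TMM and move with the scaling as well. Of 16 measured proteasome-bound factors, 8 were lower and 1 higher in ARPC4 ko than in wt (median log2 fold -0.29), and 3 were lower and 0 higher in Nrf2-EGFP (median -0.20). The share of 3 in 16 in Nrf2-EGFP, 18.8%, was close to that of all genes. Uchl5, a deubiquitinase of the 19S particle, had 57.1 CPM in ARPC4 ko, 69.6 CPM in Nrf2-EGFP and 92.2 CPM in wt. Zfand5, an activator of the 26S form, had 99.6 CPM in ARPC4 ko, 115 CPM in Nrf2-EGFP and 156 CPM in wt. Both were lower in ARPC4 ko and in Nrf2-EGFP than in wt. Ubqln2, a shuttle for ubiquitinated proteins, had 69.7 CPM in ARPC4 ko, 105 CPM in Nrf2-EGFP and 100.4 CPM in wt, and so was lower in ARPC4 ko than in either of the others. The 10 genes of p97, the segregase that hands substrates to the proteasome, and its cofactors had 4 lower and 1 higher in ARPC4 ko (median -0.30) and 0 past the threshold in Nrf2-EGFP (median -0.04). Vcp, which encodes p97, had 486 CPM in ARPC4 ko, 590 CPM in Nrf2-EGFP and 619 CPM in wt.

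The regulators of proteasome gene transcription were measured too. Nfe2l1, which encodes NRF1, had 369 CPM in ARPC4 ko, 481 CPM in Nrf2-EGFP and 529 CPM in wt. Its ratio was 0.697 in ARPC4 ko against wt, 0.766 in ARPC4 ko against Nrf2-EGFP and 0.909 in Nrf2-EGFP against wt. With TMM it was thus lower in ARPC4 ko than in both others. With total gene counts alone, the ratio to Nrf2-EGFP misses the size threshold and the ratio to wt still passes it. Nfe2l3, a related factor, had 17.98 CPM in ARPC4 ko, 17.8 CPM in Nrf2-EGFP and 9.52 CPM in wt. Its small Maf partners Maff and Mafk were also higher in both than in wt. Mafg, the other small Maf gene listed, stayed inside the size threshold, with 154 CPM in ARPC4 ko, 166 CPM in Nrf2-EGFP and 146 CPM in wt. In the list of 12 NRF1 and NRF2 genes, 3 were higher and 2 lower in ARPC4 ko, and 4 were higher and 1 lower in Nrf2-EGFP. Nfe2l2 is among the lower genes in both libraries. In ARPC4 ko its ratio of 0.799 (0.767 to 0.832) just passed the threshold, which it misses with total gene counts alone. The antioxidant targets of NRF2 had 9 of 20 lower and 2 higher in ARPC4 ko (median -0.27) and 3 lower and 5 higher in Nrf2-EGFP (median 0.14), both against wt. The lower targets were 45.0% in ARPC4 ko and 15.0% in Nrf2-EGFP, against 17.3% and 15.3% of all genes, and the 5 of 20 higher in Nrf2-EGFP stand beside 17.1% of all genes.

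Genes of 2 other large complexes give a scale for the shifts. The 9 genes of the COP9 signalosome, a relative of the 19S lid, had medians of 0.01 in ARPC4 ko and -0.01 in Nrf2-EGFP, with 1 gene lower in ARPC4 ko, Cops5, and 0 in Nrf2-EGFP. The 8 genes of the CCT chaperonin, which folds actin and tubulin, had medians of -0.36 in ARPC4 ko and -0.08 in Nrf2-EGFP, with 5 lower in ARPC4 ko and 1 in Nrf2-EGFP. The 31 core and 19S genes had a median between those of these complexes in ARPC4 ko and below both in Nrf2-EGFP. Of the 31, 11 (35.5%) were lower in ARPC4 ko and 5 (16.1%) in Nrf2-EGFP, where 17.3% and 15.3% of all genes were. The share in Nrf2-EGFP was thus close to that of all genes. The lower CCT genes were 62.5% in ARPC4 ko and 12.5% in Nrf2-EGFP, and the lower COP9 genes 11.1% and 0%. These lists were set side by side as descriptions and the differences between them were not tested.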

How the data were processed

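RNA of 3 keratinocyte cultures was sequenced as 65-base single reads from stranded mRNA libraries, per the labels' protocols. The authors deposited raw counts of reads per gene, made with TopHat2 2.1.0, Bowtie 1.1 and HTSeq on mm10, per the submitters' processing notes. The settings, the annotation and the strand mode of the counting are in none of the sources used here, and reads in overlapping or duplicated genes may be lost or shared. Between 8.22% and 9.08% of the deposited counts lie in rows that name no gene and were left out.

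GENCODE M21 on GRCm38, the mm10 assembly, gave the symbols, exons and positions of genes. Counts were scaled with TMM factors (edgeR 4.0.16 in R 4.3.3) to CPM, genes under 1 CPM in all 3 libraries were dropped, and log2 folds were taken of CPM plus 0.5. Ratios have exact conditional 95% counting intervals (scipy 1.17.1). No count model was fitted, since each genotype has 1 library. The scripts were checked on simulated data. Alternatives were DESeq2 1.42.0 size factors, upper quartile and total scaling, a pseudocount of 2 CPM, a filter of 10 CPM or none, and leaving out members that share sequence with a copy. Added after seeing the data were scaling to genes with a mean of at least 100 CPM and leaving out Psme1 and Psme2.

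The genes and lists were chosen with earlier results of these data known. By rule, the text names the 6 highest and 6 lowest members of each comparison, a fixed set of subunits of known role, and up to 3 genes of the other lists reported. Other members are named to account for all 44, and 1 further list is not reported here. Paaf1, a listed proteasome-bound factor, was not analysed here.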

Additional observations from a re-analysis of the deposited data

How the results depend on the processing

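DESeq2 size factors, the other pseudocount and both other filters moved no count of scored members beyond 1.5 times. With DESeq2 size factors 11 members were lower in ARPC4 ko against wt. For the other settings the counts of higher and lower members were fixed in advance. The scored ratios hold no pseudocount, and the filters only drop members. The filter of 10 CPM dropped Psmg4, which was not scored. Upper quartile factors left 9 lower members in ARPC4 ko against wt, and in ARPC4 ko against Nrf2-EGFP gave a median log2 fold of -0.047 with 25 of 44 genes below 0, against 32 with TMM. Scaling by total gene counts alone gave, for ARPC4 ko against wt, a median log2 fold of the 44 genes of -0.12, 5 higher and 4 lower, and, for ARPC4 ko against Nrf2-EGFP, a median of 0.04 and 2 higher. Scaling to genes with a mean of at least 100 CPM, chosen after seeing the data, gave -0.14, 5 higher and 6 lower, and a median of 0.019 in ARPC4 ko against Nrf2-EGFP. Without the 17 members that share 65-base windows with another annotated gene, 0 were higher, 6 lower and 0 past 2-fold in ARPC4 ko against wt, and 0 were higher in each of the other comparisons. Without Psme1 and Psme2, left out after seeing the data, 0 were higher in all 3 comparisons and 0 past 2-fold. With the longest coding transcript, 5, 4 and 6 of the 10 genes highest per length stayed in the 10 highest in ARPC4 ko, Nrf2-EGFP and wt. Psme1 and Psme2 are among the 17, so the fall to 0 higher and 0 past 2-fold comes from leaving them out in both settings. The fall to 6 lower also follows from the members left out. The cause of the shift with scaling was not tested. The distance of the proteasome median to that of all genes stayed between -0.23 and -0.20 in ARPC4 ko against wt and between -0.15 and -0.12 in Nrf2-EGFP against wt over all settings. For the scaling settings this was fixed in advance, because scaling shifts all log2 folds by nearly the same amount. Of the values for single members under alternatives, 986 stayed within their counting interval and 142 moved beyond it. Nearly all of the 142 came from the scaling. With total gene counts alone 73 moved and 59 stayed, and with scaling to genes with a mean of at least 100 CPM 68 moved and 64 stayed. The filters and the settings that leave members out cannot change a member's log2 fold. Their part of the 986 was therefore fixed in advance. No scored member changed its direction.

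No paired analysis was possible because each genotype has 1 library and the labels give no replicate numbers, and for the same reason no library was left out in turn. Each member had at least 168 counts in each library, and the widest intervals belong to Psmg3 and Psmg4.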
